A study of Mus musculus with 6 samples.

Results

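The RNA levels of 10 genes of the unfolded protein response were followed in tumours of the mouse hepatocellular carcinoma line H22. They were chosen by name, as the rows of the deposited expression table that carry the symbols of 3 chaperones or co-chaperones of the endoplasmic reticulum (ER; Hspa5, Hsp90b1 and Dnajb9), 3 ER stress sensors (Eif2ak3, Ern1 and Atf6), 3 transcription factors (Atf4, Ddit3 and Atf3) and the pseudokinase Trib3. All 10 were among the 21720 gene symbols of the table, and all 10 passed the filter on low counts, which left 14963 genes. H22 cells had been grown under the skin of wild-type BALB/c mice, which were female and 6 to 8 weeks old, and the flavonoid luteolin was given by gavage at 200 mg/kg in 0.2 mL, once a day over 21 days from a tumour volume near 50 mm3. Control animals received the vehicle, 0.5% carboxymethyl cellulose sodium, by the same route. Each group gave 3 libraries, numbered as in the labels. Neither the labels nor the methods state that a library is 1 tumour of 1 animal, so the p values measure the spread between these libraries, which may in part be technical. The hosts keep their own immune system, and the RNA came from whole tumour tissue with host cells in it, so that fewer cells of a type and less RNA per cell cannot be told apart in any value below.

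The unfolded protein response is the reaction of a cell to misfolded protein in the ER. Its sensors are membrane proteins of the ER: PERK (Eif2ak3), which phosphorylates the translation factor eIF2α and so favours translation of Atf4, IRE1α (Ern1), which splices the Xbp1 message, and ATF6, which is cut in the Golgi to release a transcription factor. ATF4 induces Ddit3, which encodes CHOP, and Atf3 and Trib3, while ATF6 and XBP1 induce chaperones such as BiP (Hspa5), GRP94 (Hsp90b1) and ERdj4 (Dnajb9). The response is known in secretory cells such as hepatocytes and plasma cells and in tumours short of oxygen or nutrients. Much of it acts through translation, splicing and cleavage, none of which the table measures, so every value here is a level of RNA per gene.

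Promoter sequences with response elements of these arms are shown for Hspa5 and Hsp90b1 and for Atf3, the member with the smallest p. RefSeq promoter windows on GRCm38.p6 were found for 9 of the 10 members, Atf6 being the other, and the 250 bases before the start site were searched on both strands. The windows are placed on the RefSeq start site, which lies downstream of the start of the GENCODE M21 gene by 120 bases for Hspa5, 65 bases for Hsp90b1 and 34706 bases for Atf3, so that the Atf3 window is not at the outermost annotated start. The capitals in Hspa5, chr2:34771840-34772089 on the plus strand, mark a match to the core of the unfolded protein response element (TGACGTG) from 157 to 151 bases upstream and an ER stress response element (CCAAT and CCACG with 9 free bases between them) from 65 to 47 bases upstream.
Hspa5: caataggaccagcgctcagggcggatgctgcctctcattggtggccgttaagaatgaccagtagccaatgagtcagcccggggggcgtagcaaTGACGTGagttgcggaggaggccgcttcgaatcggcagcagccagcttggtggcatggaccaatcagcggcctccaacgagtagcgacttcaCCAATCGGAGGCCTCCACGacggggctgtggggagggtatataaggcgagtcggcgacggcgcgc
The capitals in Hsp90b1, chr10:86705445-86705694 on the minus strand, mark the same ER stress response element once on the strand shown, from 212 to 194 bases upstream, and once on the other strand, from 107 to 89 bases upstream.
Hsp90b1: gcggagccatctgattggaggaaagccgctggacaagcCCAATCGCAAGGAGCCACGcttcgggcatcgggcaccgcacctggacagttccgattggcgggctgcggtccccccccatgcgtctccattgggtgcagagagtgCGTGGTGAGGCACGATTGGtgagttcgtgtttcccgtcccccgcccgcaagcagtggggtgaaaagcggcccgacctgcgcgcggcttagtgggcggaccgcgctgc
The capitals in Atf3, chr1:191183334-191183583 on the minus strand, mark a match on the other strand to TGATGNAA, the letters of the C/EBP-ATF response element to which ATF4 binds, from 110 to 103 bases upstream.
Atf3: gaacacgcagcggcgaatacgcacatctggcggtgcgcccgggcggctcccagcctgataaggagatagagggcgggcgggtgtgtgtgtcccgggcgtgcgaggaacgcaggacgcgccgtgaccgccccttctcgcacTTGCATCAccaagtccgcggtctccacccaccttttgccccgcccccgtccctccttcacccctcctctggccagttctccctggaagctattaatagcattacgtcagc

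The ER stress response element was present in 37 of 32851 promoter windows (0.113%) and in 2 members. The TGACGTG core was present in 1.65% of the windows and in Hspa5 alone among the members, and TGATGNAA in 3.45% of the windows and in Atf3 alone. A second form of the ER stress response element (ATTGG and CCACG with 1 free base between them, 0.0304% of the windows) and the cAMP response element (TGACGTCA, 1.55%) were found in 0 members. These matches describe letters in a short window, and sites farther upstream were not searched.

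Library totals ranged from 61081637 to 80442954 estimated counts. Luteolin replicate 2 stood apart, with 16767 genes detected against 15579 to 16012 in the other 5 libraries and a first principal component score of 136 against -62.4 to 46.1. Skin keratinocyte markers summed to 10400 CPM (counts scaled to a common library total by edgeR's TMM method) in that library against 159 to 574 in the others. The libraries also differed in base composition. Over all tested genes the Spearman correlation of a library's deviation from the mean of all libraries with transcript GC content was 0.43, -0.17 and -0.53 for the controls in replicate order, against -0.18, 0.44 and -0.36 for the luteolin libraries. Genes are not independent replicates, and these values are given as descriptions.

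Across the 10 members, Atf3 alone passed the threshold of the study (a fold change over 2 and an unadjusted p under 0.05, applied here to edgeR's test), and it was higher in the luteolin tumours. This is 1 of 10, where 11.3% of all tested genes were higher at that threshold, and 0 of 10 were lower, where 1.52% of all tested genes were. The share of members is near that of all genes. The study itself used DESeq2. With that program Atf3 was again the only member past the threshold, where 2004 of 17478 tested genes were higher and 282 lower. These 2 totals equal those reported in the study. With the fold change left aside, Atf3, Atf4 and Ddit3 had an unadjusted p under 0.05 in edgeR and were higher. That is 3 of 10, where 14.0% of all tested genes were, and 0 of 10 were lower, against 6.44%. After Benjamini-Hochberg adjustment of edgeR's quasi-likelihood p values the count under 0.05 was 0 of 10 in either direction, against 1.34% of all tested genes higher and 0.187% lower. The median log2 fold change of the 10 members was 0.19, beside -0.01 over all tested genes, and 7 of the 10 values were above 0, as were 49.3% over all tested genes. Every luteolin library lay above every control library for 2 of the 10 members, where this was so for 15.9% of all tested genes. By role, the 3 transcription factors and Trib3 had log2 fold changes from 0.60 to 1.06, the 3 sensors from -0.08 to 0.22 and the 3 chaperone genes from -0.14 to 0.15.

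**Figure D1:**
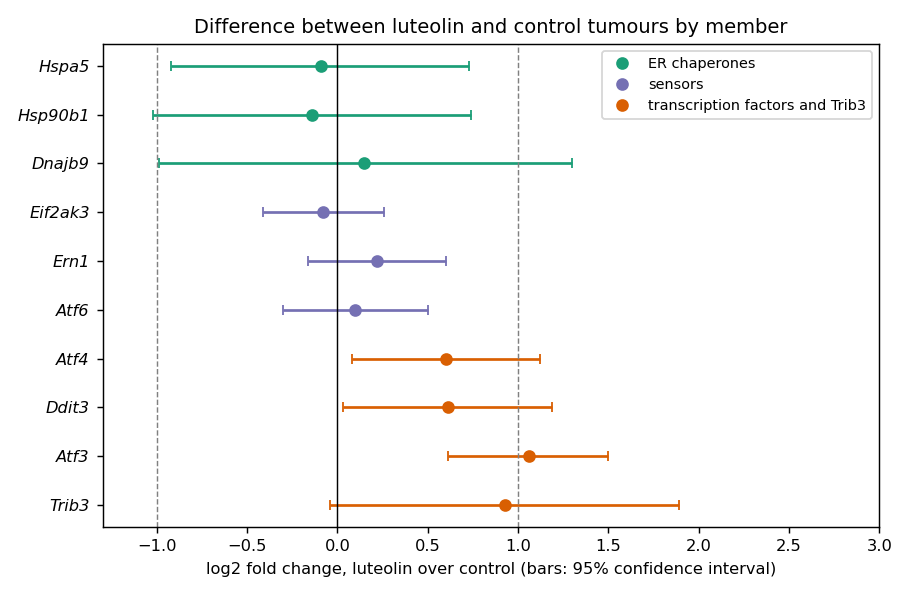
Log2 fold change of the luteolin over the control group for each of the 10 genes (points), with its 95% confidence interval from edgeR (bars, 3 libraries per group), coloured by role. Dashed lines mark a 2-fold difference, and the intervals of Atf4, Ddit3 and Atf3 lie above 0 while the other 7 include it.

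Atf3 encodes a stress-induced factor of the ATF/CREB family that is made downstream of ATF4 and also after many other stimuli. Its level was 19.6, 23.0 and 17.9 CPM in the 3 controls and 44.9, 35.7 and 45.0 CPM in the 3 luteolin libraries, always in replicate order. Every luteolin library lay above every control library. The means were 20.2 ± 2.62 CPM and 41.9 ± 5.34 CPM (SD, n = 3 each), and the log2 fold change was 1.06 (standard error 0.19, 95% confidence interval 0.61 to 1.5). In edgeR's test the unadjusted p was 0.000791. Adjusted over all 14963 genes it became 0.0505, which misses 0.05. The gene ranked 232 of 14963 by p. In 7 of the 16 alternative settings the adjusted p fell under 0.05, and the unadjusted p was under 0.05 in all 16, with log2 fold changes from 0.96 to 1.18. The adjusted p ran from 5.84e-05 with DESeq2, the program of the study, to 0.239 in edgeR without control replicate 2. The fold change fell below 2 without control replicate 3 (log2 fold change 0.97) and without luteolin replicate 3 (0.96), so that the call at the study's threshold was lost there, with an unadjusted p of 0.00403 and 0.00743 in edgeR.

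Atf4 encodes the factor whose translation rises when eIF2α is phosphorylated. It had 180, 237 and 171 CPM in the controls against 304, 227 and 362 CPM after luteolin. The groups overlapped, since luteolin replicate 2 lay below control replicate 2. The means of 196 ± 35.5 and 298 ± 68.1 CPM (SD, n = 3 each) gave a log2 fold change of 0.60 (standard error 0.22, 95% confidence interval 0.08 to 1.12, adjusted p = 0.195 in edgeR's test). The unadjusted p was 0.0301 in edgeR. It was 0.00463, with a log2 fold change of 0.78, without luteolin replicate 2, and 0.170, with a log2 fold change of 0.40, without luteolin replicate 3.

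Ddit3 encodes CHOP, a C/EBP-family factor linked to cell death under lasting ER stress. Its level was 11.9, 10.5 and 9.65 CPM in the controls and 16.0, 12.9 and 20.1 CPM in the luteolin libraries, in replicate order, from 622 to 833 and from 979 to 1284 estimated counts. The groups did not overlap, and the gap between luteolin replicate 2 and control replicate 1 was small. The log2 fold change was 0.61 (standard error 0.25, 95% confidence interval 0.03 to 1.19, adjusted p = 0.227 in edgeR's test) on means of 10.7 ± 1.15 and 16.3 ± 3.60 CPM (SD, n = 3 each). The unadjusted p of 0.0427 in edgeR was under 0.05 in 7 of the 16 alternatives, and not so with the offset for GC content and length (0.140) or without luteolin replicate 3 (0.206). GENCODE M21 lists a second overlapping gene record under the symbol Ddit3 and the methionyl-tRNA synthetase gene on the opposite strand, with 68 shared bases, and whether strand was used in counting is not given in the sources used here.

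Trib3 encodes a pseudokinase that is induced by ATF4 with CHOP and in turn restrains ATF4. Its level was 26.4, 32.3 and 17.3 CPM in the controls against 39.4, 28.5 and 76.9 CPM after luteolin. Luteolin replicate 3 held the highest value, and luteolin replicate 2 lay between the controls. The log2 fold change of 0.93 (standard error 0.41, 95% confidence interval -0.04 to 1.89, adjusted p = 0.260 in edgeR's test) missed the threshold. When libraries were left out it ranged more than that of Atf3, Atf4 or Ddit3. It ran from 0.38 without luteolin replicate 3 to 1.21 without luteolin replicate 2. In the latter fit it passed the study's threshold with an unadjusted p of 0.0127 in edgeR. With all libraries DESeq2 gave Trib3 a log2 fold change of 0.93 with an unadjusted p of 0.03 (adjusted p = 0.155), under 2-fold as in edgeR.

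In Atf3, Atf4, Ddit3 and Trib3 the libraries fell into a like order. Luteolin replicate 2 was the lowest luteolin library for each of them, and luteolin replicate 3 was the highest, by less than 1 CPM for Atf3. Ern1, Atf6 and Hspa5 had the same order of luteolin libraries, so that it was not particular to these 4 genes. Control replicate 2 was the highest control library for Atf3, Atf4 and Trib3, and control replicate 1 for Ddit3. A ratio between 2 genes of the same library does not depend on the scaling between libraries. The log2 ratio of Atf3 to Atf4 CPM was -3.21, -3.36 and -3.26 in the controls and -2.76, -2.67 and -3.01 in the luteolin libraries, so that Atf3 was higher relative to Atf4 in every luteolin library. The log2 ratio of Ddit3 to Atf4 overlapped between the groups (-4.49 to -3.92 and -4.25 to -4.13), as did that of Trib3 to Atf4 (-3.31 to -2.77 and -2.99 to -2.24). These ratios were chosen after the values were seen and are given without a test.

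**Figure D2:**
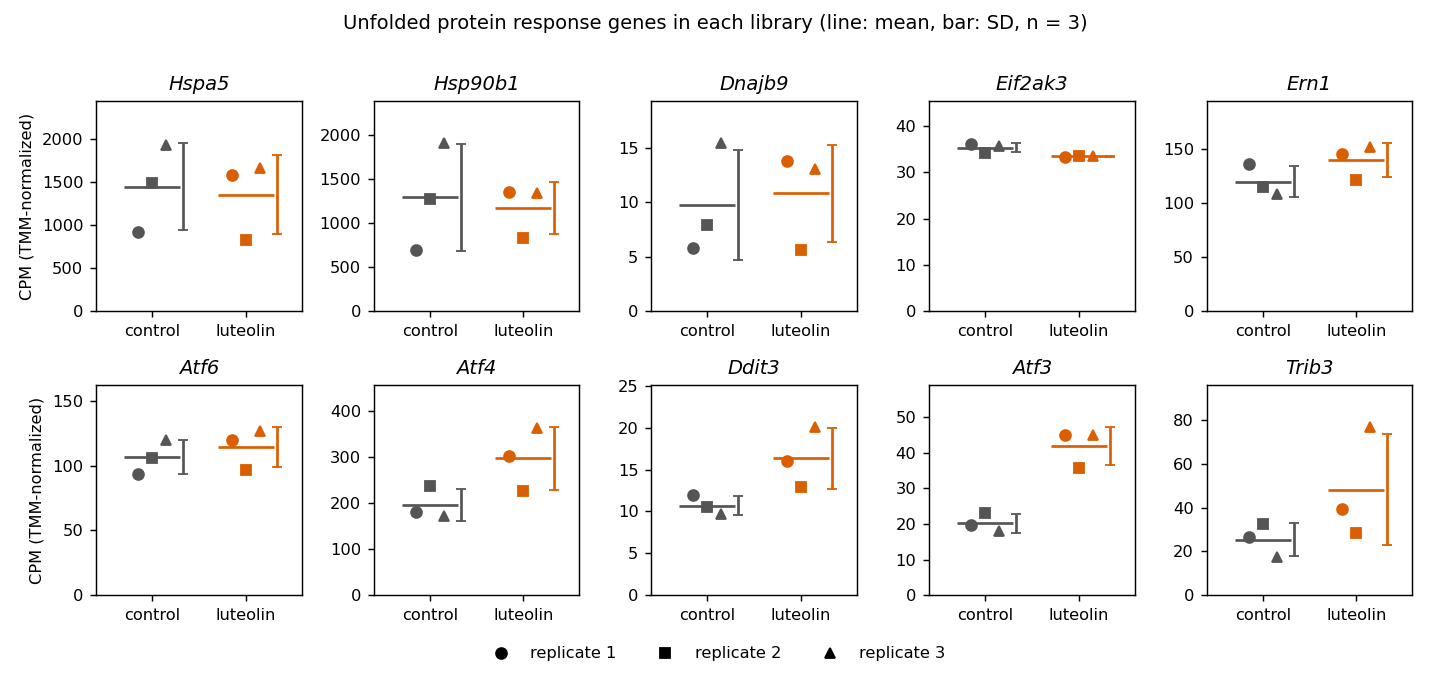
Level of each gene in CPM (vertical axis, from 0) in the 3 control and 3 luteolin libraries, with a symbol for each replicate number, the group mean as a line and the SD as a bar. The groups are apart for Atf3 and Ddit3 and, by a small margin and with luteolin lower, for Eif2ak3.

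For the 3 sensors the differences between the groups missed the threshold. Eif2ak3, which encodes PERK, had 36.0, 34.2 and 35.6 CPM in the controls against 33.4, 33.5 and 33.5 CPM after luteolin. All 3 luteolin libraries lay below the controls, which was also so for 12.8% of all tested genes, but the difference was small beside the error of the fit. Its log2 fold change was -0.08 (standard error 0.14, 95% confidence interval -0.41 to 0.26, adjusted p = 0.819 in edgeR's test), and the interval corresponds to a ratio of luteolin to control between 0.751 and 1.20.

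Ern1, which encodes the kinase and endoribonuclease IRE1α, had 136, 115 and 108 CPM in the controls and 145, 121 and 151 CPM in the luteolin libraries, in replicate order. The groups overlapped through control replicate 1 and luteolin replicate 2. The log2 fold change was 0.22 (standard error 0.16, 95% confidence interval -0.16 to 0.60, adjusted p = 0.498 in edgeR's test), and limma's voom with sample quality weights gave 0.32 with an adjusted p of 0.0457. Atf6, which encodes the sensor that becomes a transcription factor on cleavage, had 94.1, 106 and 120 CPM in the controls and 120, 96.9 and 127 CPM in the luteolin libraries. Its log2 fold change was 0.10 (standard error 0.17, 95% confidence interval -0.30 to 0.50, adjusted p = 0.799 in edgeR's test). For all 3 sensors the interval left out a 2-fold difference in either direction.

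Hspa5 and Hsp90b1 were the most abundant members, and the 3 chaperone genes had the widest spread between control libraries, with coefficients of variation of 34.7% for Hspa5, 46.7% for Hsp90b1 and 51.8% for Dnajb9 against at most 29.9% (Trib3) for the others. Hspa5, which encodes BiP, the main Hsp70 of the ER lumen, had 925, 1490 and 1930 CPM in the controls against 1580, 825 and 1670 CPM after luteolin. Control replicate 1 and luteolin replicate 2 were low and the other 4 libraries high. The means were 1450 ± 504 and 1360 ± 463 CPM (SD, n = 3 each), and the log2 fold change was -0.09 (standard error 0.35, 95% confidence interval -0.92 to 0.73, adjusted p = 0.918 in edgeR's test).

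Hsp90b1, which encodes GRP94, the Hsp90 of the ER, had 700, 1280 and 1910 CPM in the controls and 1350, 839 and 1340 CPM in the luteolin libraries, in replicate order. Again control replicate 1 and luteolin replicate 2 were the lowest libraries, and the highest control value was 2.73 times the lowest. The log2 fold change was -0.14 (standard error 0.37, 95% confidence interval -1.02 to 0.74, adjusted p = 0.884 in edgeR's test). It was -0.45 without control replicate 1 and 0.25 without control replicate 3, so that no direction held. A pseudogene on the opposite strand overlaps Hsp90b1 over 4598 bases in GENCODE M21.

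Dnajb9, which encodes the BiP co-chaperone ERdj4, was far less abundant, with 5.84, 7.91 and 15.4 CPM in the controls and 13.8, 5.65 and 13.0 CPM in the luteolin libraries. Luteolin replicate 2 and control replicate 1 were again the lowest libraries and control replicate 3 the highest. The log2 fold change was 0.15 (standard error 0.48, 95% confidence interval -0.99 to 1.30, adjusted p = 0.902 in edgeR's test). The intervals of the 3 chaperone genes reach down to -0.92, -1.02 and -0.99 and up to 0.73, 0.74 and 1.30 on the log2 scale for Hspa5, Hsp90b1 and Dnajb9, and with voom Dnajb9 had 0.66 with an unadjusted p of 0.0367 in limma (adjusted p = 0.111).

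The libraries differed in base composition, as given above. Dnajb9 (40.6% GC), Hsp90b1 (43.8%), Hspa5 (45.6%) and Atf6 (46.0%) had the lowest GC content of the 10 members, and all 4 had their lowest control value in replicate 1 and their lowest luteolin value in replicate 2, the 2 libraries in which genes of high GC content stood high over the whole table. With each group centred on its mean, the Pearson correlations among these 4 genes over the 6 libraries lay between 0.92 and 0.99, while Hspa5 had 0.28 with Ddit3, 0.29 with Trib3, 0.43 with Atf3 and 0.57 with Atf4. Atf4 had 0.94 with Atf3 and 0.91 with Trib3. Ddit3 had 0.89 with Trib3, 0.73 with Atf4 and 0.64 with Atf3, and Atf3 had 0.81 with Trib3. The sensor gene Ern1 had 0.90 with Ddit3, 0.69 with Trib3, 0.55 with Atf3 and 0.51 with Atf4. Control replicate 1 was the lowest control library for 0 of the other 6 members, but luteolin replicate 2 was the lowest luteolin library for 5 of them (all but Eif2ak3), so that low values in luteolin replicate 2 were not particular to the 4 genes of low GC content. These correlations rest on 6 libraries that share depth and base composition with all other genes and are descriptions. Centring each group on its mean leaves fewer than 6 independent values per gene, so that high correlations are easily reached. Among all tested genes, Gdi2, Trappc8 and Desi2 followed Hspa5 most closely by the same measure (0.9998 or more), and Dnajc22, mt-Nd4l and Prpf38b followed Atf3 (0.986 to 0.997). As the highest values of a search over all tested genes they are descriptions too, and shared regulation was not tested.

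**Figure D3:**
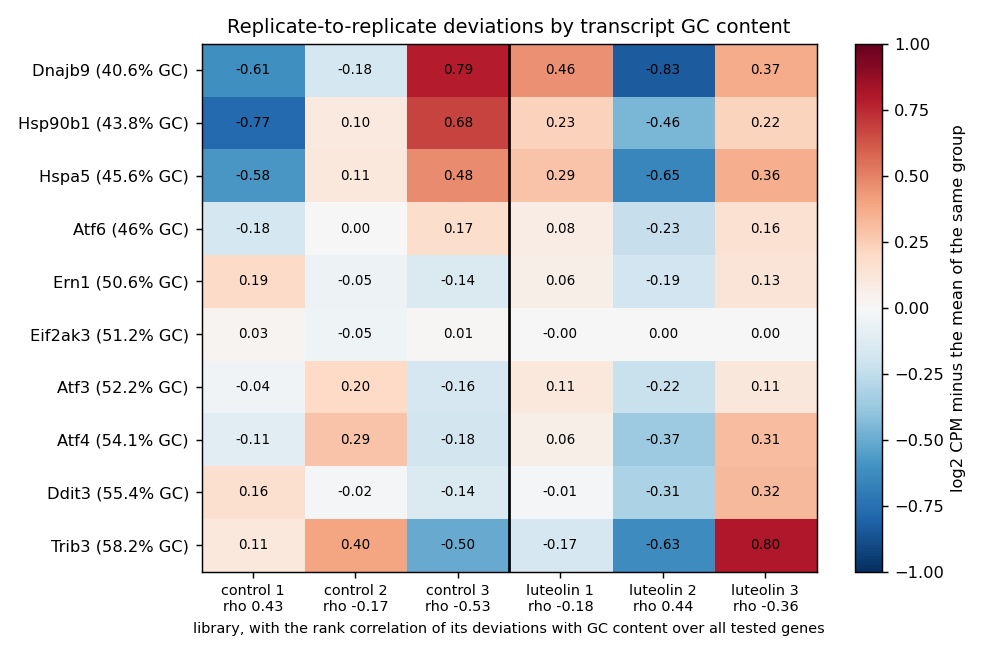
Deviation of each library from the mean of its own group (log2 CPM, numbers and colour) for the 10 genes, ordered from the lowest transcript GC content at the top to the highest at the bottom. Under each library stands a Spearman correlation with GC content over all tested genes. It was taken on deviations from the mean of all libraries, not on the group-centred deviations shown. The top 4 genes are low in the 2 libraries where that value is 0.43 and 0.44. Luteolin replicate 2 (0.44) is also low for genes of higher GC content, with -0.63 for Trib3, -0.37 for Atf4, -0.31 for Ddit3 and -0.22 for Atf3.

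With an offset for GC content and gene length fitted to each library, the ratio of the highest to the lowest control value dropped from 2.73 to 1.78 for Hsp90b1, from 2.09 to 1.57 for Hspa5, from 2.64 to 1.49 for Dnajb9 and from 1.28 to 1.05 for Atf6. The log2 fold changes of these 4 genes were then -0.02, -0.05, 0.30 and 0.17, and none had an unadjusted p under 0.05 in edgeR's test. Atf6 alone of the 4 came apart by group, with 103 to 108 CPM in the controls and 117 to 119 CPM in the luteolin libraries and an unadjusted p of 0.102 in edgeR. Atf3 kept its difference with 1.03 (adjusted p = 0.0332 in edgeR's test). Atf4 and Ddit3 had 0.56 and 0.52 and no longer an unadjusted p under 0.05 (0.0891 and 0.140), and their luteolin libraries lay farther apart than before, at 320, 188 and 394 CPM for Atf4. The groups of Ddit3 then overlapped, since luteolin replicate 2 with 9.75 CPM lay below the controls with 10.4 to 12.8 CPM.

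Levels of different genes were compared per kilobase of the longest coding transcript in GENCODE M21. In the control tumours Hsp90b1 and Hspa5 stood at 459 ± 214 and 395 ± 137 CPM per kb and Atf4 at 114 ± 20.6 (SD, n = 3). Far below followed Ern1 with 17.2 ± 2.08, Atf6 with 14.7 ± 1.79, Trib3 with 12.5 ± 3.74, Ddit3 with 12.0 ± 1.29, Atf3 with 10.2 ± 1.32, Eif2ak3 with 7.82 ± 0.215 and Dnajb9 with 3.95 ± 2.05 CPM per kb. The ranges of Hsp90b1 and Hspa5 overlapped, as did those of each neighbouring pair from Ern1 to Atf3, so the order within such a pair does not exceed the spread. Genes farther apart could differ: the control range of Ern1 (15.5 to 19.5) lay above those of Ddit3 (10.8 to 13.4) and Atf3 (9.01 to 11.6). In the luteolin tumours Trib3 with 23.8 ± 12.5 and Atf3 with 21.1 ± 2.69 CPM per kb stood above Ern1 with 20.0 ± 2.25, again with overlapping ranges. Atf4 followed the 2 chaperone genes at 173 ± 39.5 CPM per kb, and Eif2ak3 and Dnajb9 were again last, with 7.42 ± 0.0194 and 4.39 ± 1.82.

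The other genes of the pathway were taken from 7 lists written from general knowledge. The ATF4 and CHOP target list had 29 tested genes, of which 6 were higher at the study's threshold and 0 lower (20.7% higher, beside 11.3% of all genes). In 11 of the 29 every luteolin library lay above every control library (37.9%, beside 15.9% of all tested genes), 27 had a value above 0, and the median log2 fold change was 0.51. Nupr1, a stress-induced chromatin protein, had 51.8 ± 13.9 against 15.9 ± 3.52 CPM (SD, n = 3 each) and was the only gene of the list with an adjusted p under 0.05 (0.0429 in edgeR's test, log2 fold change 1.70). With libraries left out its adjusted p in edgeR ran from 0.0415 to 0.207 and was under 0.05 in 1 of 6 fits, the one without luteolin replicate 2. The fits without control replicate 1, 2 or 3 or luteolin replicate 1 called 0 genes higher in the whole table at that level. Their result says nothing particular to Nupr1. Ddit4, an inhibitor of mTORC1, had a log2 fold change of 1.10 and Stc2, a secreted glycoprotein, of 1.96, and edgeR gave them adjusted p values of 0.0672 and 0.0791. The 2 most abundant genes of the list, the amino acid transporter Slc7a5 (0.52) and the asparaginyl-tRNA synthetase gene Nars (0.03), missed the threshold.

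The lists tied to the chaperone arm had medians close to 0. Of 23 ER chaperones and folding enzymes, 1 was higher (Fkbp11, log2 fold change 1.78, 4.35% beside 11.3% of all tested genes) and 0 lower at the study's threshold, and the median was 0.03. Fkbp11 lost this call without luteolin replicate 2 (log2 fold change 1.0, unadjusted p of 0.109 in edgeR) and without control replicate 1, 2 or 3 (unadjusted p of 0.0643, 0.058 and 0.0935). Calr had 0.30, Sil1 0.62, Canx -0.39 and P4hb 0.02. Of 19 genes of ER-associated degradation, 1 was higher at that threshold (Derl3, 1.45, 5.26% of the list), and the median was -0.03, with Faf2 at -0.33, Ubxn4 at -0.26 and Vcp at -0.08. Derl3 lost the call without luteolin replicate 2 (0.98), with voom (0.77) and without control replicate 3 (unadjusted p of 0.0565 in edgeR). Of 18 genes of ER translocation and secretion, 0 passed the study's threshold, and the median was 0.00. At an unadjusted p under 0.05 in edgeR 1 was lower (Ssr2, -0.68), 5.56% beside 6.44% of all tested genes, and 0 higher. Serp1 had 0.60, Sec31a -0.30, Ssr3 -0.16 and Sec61a1 0.00. Fkbp11 and Derl3 are abundant in antibody-secreting plasma cells. The 7 plasma cell markers summed to 231 to 283 CPM in the controls and 407 to 692 CPM in the luteolin libraries. In 5 of the 7 every luteolin library lay above every control library, beside 15.9% of all tested genes. Xbp1 was the largest term of the sum in the controls, and Sdc1 was so in luteolin replicates 1 and 2, with 150 and 293 CPM against 70.7 to 85.2 CPM in the controls. Its highest value was thus in the library with the highest sum of keratinocyte markers. Tnfrsf17 was at 0 in control replicates 1 and 2 and luteolin replicate 1. The part of such cells in the values of Fkbp11 and Derl3 was not tested.

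Of the 13 further sensors and transcription factors, 1 was higher at the study's threshold (Creb3l1, 1.26), and the median was 0.18. That is 7.69% of the list, beside 11.3% of all tested genes. The groups overlapped for Creb3l1 (2.40 to 4.01 CPM in the controls and 3.76 to 12.2 CPM after luteolin), and the call was lost without luteolin replicate 2 (0.70), luteolin replicate 1, control replicate 2 or control replicate 3, with voom (0.99) and with the replicate number as a block (unadjusted p of 0.0635 in edgeR). Xbp1, the substrate of IRE1α, had 163 ± 41.0 against 137 ± 20.3 CPM (SD, n = 3 each), with 0.25 as the log2 fold change (adjusted p = 0.572 in edgeR's test). The table does not separate its spliced form. Creb3l3 had 1.16, Traf2 -0.38 and Mbtps1 -0.13. Of 13 genes for eIF2α kinases, phosphatases and eIF2B, 0 passed the study's threshold, and 1 was higher and 2 lower at an unadjusted p under 0.05 in edgeR (7.69% and 15.4%, beside 14.0% and 6.44% of all tested genes). Ppp1r15a, the stress-induced phosphatase subunit GADD34 that acts against PERK, had 60.4 ± 15 against 32.1 ± 2.41 CPM (SD, n = 3 each) and 0.91 as its log2 fold change (adjusted p = 0.0957 in edgeR's test). Its constitutive counterpart Ppp1r15b had 0.12, Eif2s1 -0.23, Eif2b1 -0.36 and Eif2b5 -0.34. Among 9 cell-death genes, 2 were higher at the study's threshold (Casp4, 1.84, and Pmaip1, 1.16), which is 22.2% beside 11.3% of all tested genes. Casp4 lost the call without control replicate 2, and Pmaip1 without luteolin replicate 2 (0.78) or control replicate 1 or 2, with voom (0.80) and with the block. The CHOP target Tnfrsf10b, a death receptor, had 126 ± 15.7 against 214 ± 8.57 CPM (SD, n = 3 each) and -0.77 as its log2 fold change (adjusted p = 0.0613 in edgeR's test), and Txnip had -0.58.

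The comparison lists were set beside these. Of 15 cytosolic heat-shock genes, 5 were lower and 0 higher at an unadjusted p under 0.05 (33.3% lower, beside 6.44% of all tested genes), and the median was -0.26. Dnajb1 had 141 ± 15.5 against 257 ± 14.0 CPM (SD, n = 3 each, log2 fold change -0.87, adjusted p = 0.0454 in edgeR's test). With libraries left out its adjusted p in edgeR ran from 0.0528 to 0.247. At an adjusted p under 0.05 the fits without control replicate 1, 2 or 3 or luteolin replicate 1 called 0 genes lower in the whole table. Hsph1 had a log2 fold change of -1, and the abundant Hsp90ab1 and Hspa8 had -0.38 each. Of 10 mitochondrial chaperones and proteases, 2 were lower and 0 higher at an unadjusted p under 0.05 in edgeR (Trap1 and Clpx, -0.40 each). That is 20% lower, beside 6.44% of all tested genes. Yme1l1 had -0.56, Hspd1 -0.25 and Hspa9 0.06. Of 17 immediate early genes, a class in which Atf3 is often counted though it was not in this list, 10 were higher and 1 lower at an unadjusted p under 0.05 in edgeR (58.8% higher, beside 14.0% of all tested genes), and the median was 0.84. Fos had 1.75, Zfp36 1.30, Jun 0.84, Junb 0.40 and Klf6 0.02.

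**Figure D4:**
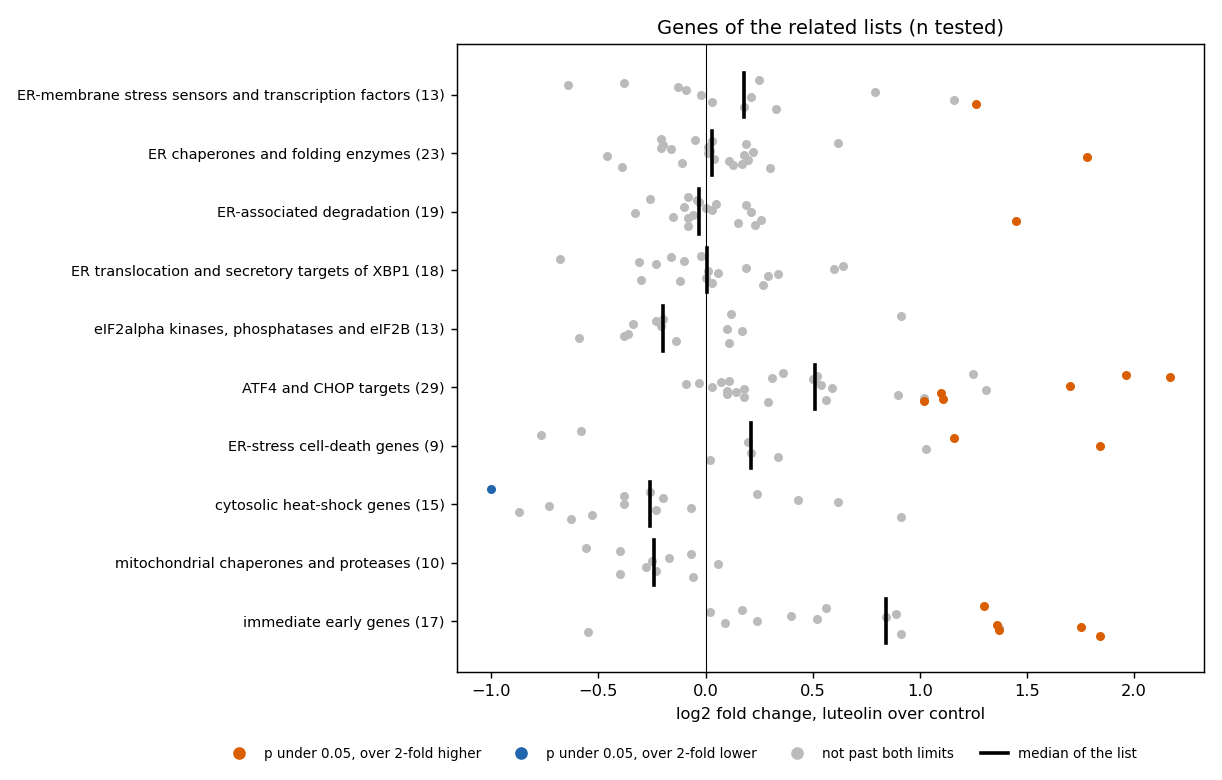
Log2 fold change of every tested gene (points) in the 7 pathway lists and the 3 comparison lists, with the number tested in brackets and the list median as a vertical bar. Orange points are genes over 2-fold higher and blue points over 2-fold lower with an unadjusted p under 0.05, and the medians run from -0.26 for cytosolic heat-shock genes to 0.84 for immediate early genes.

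Markers of host cells moved between the groups as well, beside every difference given here. The 7 T cell markers in the table summed to 10.5 to 14.1 CPM in the controls and 41.5 to 74.8 CPM in the luteolin libraries, and the 8 macrophage markers to 966 to 1140 and 1510 to 2270 CPM. The sums were 46.3 to 52.4 and 123 to 229 CPM for 7 neutrophil markers and 1520 to 1710 and 2300 to 5390 CPM for 8 fibroblast markers. The sums of adipocyte, skeletal muscle and proliferation markers overlapped between the groups. Of the 10 skin keratinocyte markers, 6 were at 0 in all control libraries (Krt5, Krt14, Krt1, Krt15, Lor and Dsg1a), and none of the 10 was at 0 in all luteolin libraries. The labelled hepatocellular origin was weakly marked: 9 hepatocyte and hepatoma markers summed to 46.1 to 132 CPM in the controls and 75.9 to 183 CPM in the luteolin libraries, Afp had 32.7 to 66.7 CPM and Alb 0.868 to 133 CPM, and Hnf4a lay at or below 0.327 CPM in every library. Luteolin replicate 2 had the highest sums of T cell, macrophage, fibroblast and keratinocyte markers. The same held for plasma cell, neutrophil, endothelial, adipocyte and skeletal muscle markers. It had the lowest luteolin values of every member but Eif2ak3, so that this was not particular to Atf3, Atf4, Ddit3 and Trib3. Without it Atf3, Atf4, Ddit3 and Trib3 had log2 fold changes of 1.18, 0.78, 0.77 and 1.21. The part of host cells in the differences of these genes was not tested.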

How the data were processed

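RNA-seq libraries of H22 tumours were analysed, 3 of the control and 3 of the 200 mg/kg luteolin group, and 0 columns were left out. The authors deposited estimated counts, which they had made from sequencing reads as whole numbers for each gene symbol, without scaling between libraries. Of the values from 1 to 40, 44.8% are multiples of 4, where 1 in 4 whole numbers is. With values 1 above a multiple included the share is 70.3%, so that a unit need not be a read. The submitters' processing notes list bcl2fastq 2.0, HISAT2, StringTie and DESeq2 and the builds mm39 and rn6, without roles. The annotation and the counting settings are not given in the sources used here. The paper and the labels name different kits and RNA inputs (1 and 1.3 μg).

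Counts were compared in R 4.3.3 with edgeR 4.0.16 (TMM, filterByExpr, quasi-likelihood test, no covariates) over all 14963 genes that passed the filter. The test is two-sided, with Benjamini-Hochberg adjustment. CPM are scaled to the TMM-normalized total, and centred correlations used log2 CPM with a prior count of 2. GC content and length are those of the longest coding GENCODE M21 transcript, and promoter letters are from RefSeq on GRCm38.p6. At a count of 0 the upper limit is 3 counts per library, or 0.0359 to 0.0490 CPM, which covers counting error only.

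The members and lists were chosen with earlier results of these data known. The 10 members are all named, and from each list the 3 genes with the smallest p and the 2 with the highest mean, apart from 1 gene that is not reported here. Alternatives were DESeq2 1.42.0, limma 3.58.1 (voom with sample quality weights), RLE and upper-quartile normalization, no filter, at least 10 counts in every library, values divided by 4, an offset for GC content and length (splines of 4 and 3 degrees of freedom), the replicate number as a block with and without that offset, and each library left out in turn.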

Additional observations from a re-analysis of the deposited data

How the results depend on the processing

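Over 16 alternatives, the count of members higher at the study's threshold was 1 in 13, where 1293 to 2004 genes were higher over the whole table. With libraries left out the count of members ranged from 0 to 2. It was 0 without control replicate 3 (1484 genes higher over the whole table) and without luteolin replicate 3 (2104). It was 2 without luteolin replicate 2 (1139), where Trib3 joined Atf3. At an adjusted p under 0.05 the count of members higher was 0 in edgeR and 1 (Atf3) with DESeq2, upper-quartile normalization, at least 10 counts in every library, values divided by 4 and the GC content and length offset, and it was 4 with voom (Atf3, Atf4, Ddit3 and Ern1). It ranged from 0 to 1 with libraries left out, and it was 1 without luteolin replicate 2. The fits without control replicate 1, 2 or 3 or luteolin replicate 1 called 0 genes higher in the whole table, so their 0 says nothing particular to the members. The count of members lower was 0 throughout by either rule. Over the whole table the calls lower ran from 140 to 498 at the study's threshold and from 0 to 1311 at an adjusted p under 0.05. Over all tested genes, the adjusted calls higher were 200 in edgeR, 1543 with DESeq2, 1886 with voom, 729 with the offset, 345 with at least 10 counts, 327 with values divided by 4, 224 with upper-quartile and 210 with RLE normalization and 156 without a filter, and 154 and 276 without luteolin replicates 3 and 2. The cause was not tested.

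Deviations of same-numbered libraries from their group means correlated at -0.2, -0.09 and 0.06, and 0 of the 3 pairs passed 0.1. The libraries also differed in base composition and host cell markers, so these values cannot settle whether the numbers pair the libraries. With the replicate block the count of members higher at the study's threshold was again 1, where 1293 of all tested genes were higher. At an adjusted p under 0.05 it was again 0, where 34 of all tested genes were higher. Atf3 had 1.06 (adjusted p = 0.136 in edgeR's test with the block).

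The log2 fold change of genes near 0 turned direction under some settings. With voom it was 0.09 for Hspa5, 0.08 for Hsp90b1, -0.02 for Xbp1, 0.10 for Ssr3, -0.07 for Sec61a1 and -0.06 for Nars. With the offset it was -0.04 for P4hb and -0.06 for Sec61a1. With the block and the offset it was 0.01 for Hsp90b1, -0.04 for P4hb, -0.06 for Sec61a1 and -0.02 for Nars, and with the block alone -0.04 for Nars, -0.03 for Hspa9 and -0.01 for Klf6. Sec61a1 had -0.01 with DESeq2, -0.01 with RLE and -0.02 without a filter. With libraries left out the ranges were -0.34 to 0.18 for Hspa5, -0.45 to 0.25 for Hsp90b1, -0.02 to 0.23 for Atf6, -0.11 to 0.65 for Dnajb9, -0.01 to 0.05 for P4hb, -0.40 to 0.15 for Ssr3, -0.06 to 0.02 for Sec61a1, -0.06 to 0.28 for Ppp1r15b, -0.34 to 0.31 for Nars, -0.33 to 0.39 for Hspa9, -0.51 to 0.03 for Hspd1 and -0.13 to 0.24 for Klf6. Atf3, Atf4, Ddit3, Trib3 and Ern1 stayed above 0 and Eif2ak3 below 0 in all 16.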
